A study of Papio cynocephalus with 12 samples.

Results

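The same blood RNA-Seq reads of 12 yellow baboons (Papio cynocephalus) were counted after mapping with Bowtie2 to the human reference transcriptome and after mapping with the same program to the human reference genome. The 2 tables are called Bowtie2 and Bowtie2-G. All transcripts with a mean count of 10 or more over the 12 animals in either table were compared, which gave 12238 of the 41970 transcripts listed (29.2%). Of these, 9848 reached this mean in both tables, 2060 with Bowtie2 only and 330 with Bowtie2-G only. The other 29732 listed transcripts were not compared, and 17502 of them had no count in either table.

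The animals were adult males from a breeding colony, sampled at baseline, immediately before inoculation, with 1 sample per animal and no treatment. Later samples of the same animals are not used here. The labels name mononuclear cells of peripheral blood, whereas the methods describe blood drawn into PAXgene tubes and depleted of globin transcripts. The labelled tissue was not checked against marker genes, since no source used here pairs the accessions in the tables with genes.

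RNA polymerase copies introns along with exons, and splicing removes the introns, so a read of mature RNA that spans the boundary of 2 exons has no continuous match on the genome. Bowtie2 aligns reads without gaps the size of an intron. On a reference built from transcripts such a read lies in 1 piece. A genome also holds processed pseudogenes, which are copies of spliced transcripts that were inserted back into it without introns, and it holds sequence outside annotated transcripts, so a read can find a place there that a transcriptome does not offer. In addition, htseq-count in the mode used leaves out a read whose position on the genome belongs to more than 1 transcript in equal measure. Among equally good places Bowtie2 reports 1 at random, by the study's account. On the transcriptome, a read that fits several transcripts can thus lie on 1 of them and be counted there. How htseq-count was set up for alignments to the transcriptome is not stated in the sources used here. Both references were human, so every read of a baboon was mapped across species.

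The columns summed to 12440977 to 15910139 counts with Bowtie2 and to 9811143 to 13389837 with Bowtie2-G. The transcripts compared held 99.9% of the counts in both tables. For each animal, the number of read pairs after quality control was the library size of both columns, so that a read assigned with 1 reference and not with the other remained a difference. Differences were tested with the quasi-likelihood test of edgeR, with the animal as a block. Because both columns of an animal come from the same reads, a p-value concerns a difference between mappings, and not a difference between biological conditions. The test treats the 2 columns of an animal as separate counts, so a p-value also depends on the number of counts. Some small differences with the same direction in 12 of 12 animals were therefore not called.

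Most transcripts had more counts with the transcriptome reference. The test called 8552 transcripts higher with Bowtie2 than with Bowtie2-G, which is 69.9% of all transcripts tested, and 982 lower, or 8.02% (edgeR quasi-likelihood test, Benjamini-Hochberg adjusted p under 0.05). It called neither direction for 2704 transcripts (22.1%). The counts were higher with Bowtie2 in 12 of 12 animals for 8365 transcripts and lower in 12 of 12 for 914. When a difference of 2-fold or more was also required, 3109 transcripts (25.4%) were higher and 489 (4.00%) were lower. Many of these passed the filter through 1 table only, where they had to be high: among the 9848 transcripts with a mean of 10 or more in both tables, 1263 (12.8%) were 2-fold or more higher and 244 (2.48%) lower.

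The typical difference was small and the tail was long. On the log2 scale, the ratio of mean counts with Bowtie2 to those with Bowtie2-G (1 added to both) had a median of 0.23 over all transcripts, a ratio of 1.17. It lay within 0.5 of 0 for 7316 transcripts (59.8%). At the other end, 1451 transcripts (11.9%) had a ratio of 8-fold or more. In the latter, the median of the mean counts was 72.5 with Bowtie2 and 1.17 with Bowtie2-G.

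The direction of the many small differences depended on the scaling. When each column was scaled by TMM to its own total, the median log2 fold change moved by -0.34, and 4406 transcripts were called higher and 6003 lower. The share of higher calls then was 42.3%, against 89.7% with read pairs as library size. The values below are per read pair unless stated otherwise.

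**Figure D1:**
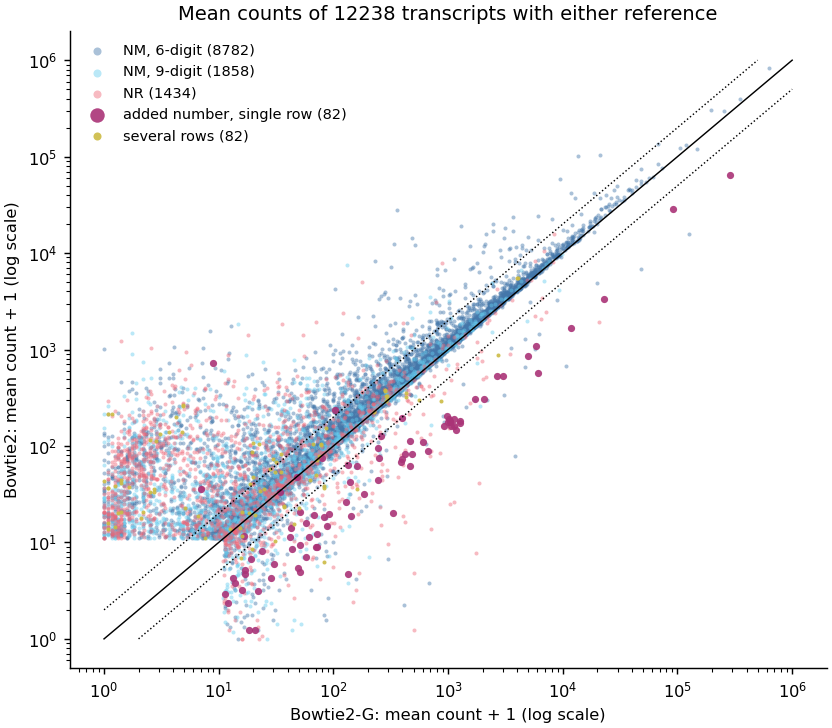
Mean count over 12 animals of each of the 12238 transcripts with Bowtie2-G (x axis) and with Bowtie2 (y axis), both on log scales with 1 added. Points are coloured by kind of accession, the solid line marks equal counts and the dotted lines mark a 2-fold difference. Most points lie just above the solid line, a cloud of 664 transcripts with under 1 count per animal with Bowtie2-G and others near it stands at the left, and most of the 82 large purple points lie below the lower dotted line.

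Detection followed the same direction. All 41970 transcripts listed were examined for this. With Bowtie2, 890 of them reached 5 counts in each of the 12 animals and stayed under 5 in each with Bowtie2-G. Of these, 536 had an NM accession, which RefSeq gives to protein-coding messenger RNA, and 354 an NR accession, which it gives to non-coding RNA. The reverse was found for 56 transcripts, 42 NM and 14 NR. Of all transcripts listed, 34587 were NM and 7383 NR, and of those compared, 10754 were NM and 1484 NR. Among the transcripts compared, 64 were at 0 in all animals with Bowtie2-G and 5 were at 0 in all animals with Bowtie2.

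The threshold on the mean count divided transcripts that differed little. The 226 transcripts just outside it, whose larger mean was 9 to under 10, had a median log2 ratio of 0.20, and 20.4% of them were NR transcripts. The 218 just inside it, from 10 to under 11, had a median of 0.19, and 19.7% were NR transcripts.

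Transcripts were then grouped by what the accession shows. Accessions with 1 plain row were divided into NM accessions of 6 digits, NM accessions of 9 digits, which are records numbered later, and NR accessions. In 1330 rows of the tables the accession is followed by a number, whose meaning no source used here gives. The accessions whose only row carries such a number (266 rows) formed a group called single numbered accessions, and all rows of accessions that stand in several rows (1658) formed the last. The length of a transcript, its exons, its isoforms and the pseudogenes of its gene were not analysed here.

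The groups differed in how often and how far they moved. Of 8782 NM transcripts of 6 digits, 6326 (72.0%) were called higher with Bowtie2 and 370 (4.21%) lower, and their median log2 ratio was 0.20. For the 1858 NM transcripts of 9 digits the median was 0.37, with 1196 (64.4%) higher and 253 (13.6%) lower. The 1434 NR transcripts had a median of 1.34, a ratio of 2.54, with 973 (67.9%) higher and 265 (18.5%) lower. Over all transcripts tested, the shares were 69.9% and 8.02%.

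Large differences were most frequent in the NR group in both directions when it is set beside both NM groups. Differences of 2-fold or more in favour of Bowtie2 were called for 774 NR transcripts (54.0%), 700 NM transcripts of 9 digits (37.7%) and 1594 NM transcripts of 6 digits (18.2%), against 25.4% of all transcripts. In favour of Bowtie2-G they were called for 141 (9.83%), 130 (7.00%) and 132 of the 8782, against 4.00% of all. Among transcripts with a mean of 10 or more in both tables, the shares that were 2-fold or more higher were 26.3%, 16.8% and 11.0%, and the shares lower were 11.5%, 3.62% and 0.716%, in the same order.

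The calls of the NM groups depended on the scaling. With TMM, 2635 NM transcripts of 6 digits were called higher and 4746 (54.0%) lower, with a median log2 fold change of -0.13, so the direction of this group turned. For NM transcripts of 9 digits, 858 were higher and 712 lower, with a median of 0.05. For NR transcripts, 864 were higher and 438 lower, with a median of 1.08.

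The NR transcripts did not move as a block. Their log2 ratio lay within 0.5 of 0 for 351 transcripts (24.5%), and 506 (35.3%) were 8-fold or more higher with Bowtie2. The latter share was 18.8% in NM transcripts of 9 digits and 6.46% in those of 6 digits. With Bowtie2-G, 238 NR transcripts (16.6%) had under 1 count per animal. The quartiles of the log2 ratio were 0 and 3.97 for NR transcripts, 0.04 and 2.23 for NM transcripts of 9 digits and 0.08 and 0.61 for those of 6 digits.

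The median of the NR group rested on transcripts that only 1 of the references detected well. Of the NR transcripts, 609 (42.5%) entered through Bowtie2 alone, and such transcripts had to be higher there. Among the 738 NR transcripts with a mean of 10 or more in both tables the median log2 ratio was 0.16, and it was 0.18 for NM transcripts of 6 digits and 0.17 over all such transcripts. Of these 738, 26.3% were still 2-fold or more higher and 11.5% 2-fold or more lower. The median also followed the table by which transcripts were taken. With a mean of 10 or more in the TopHat2 table, it was 1.01 for 1186 NR transcripts, 0.25 for 1586 NM transcripts of 9 digits and 0.19 for 8578 of 6 digits. TopHat2 is described in the study as mapping first to the transcriptome with Bowtie2, so it is no neutral choice. With the Stampy table, also made on the transcriptome, the medians were 0.88, 0.41 and 0.20, in the same order. By the counts of Stampy-G they were 0.09, 0.16 and 0.18, and with that of GSNAP 0.06, 0.13 and 0.17. Over these choices of transcripts, the NR median exceeded both NM medians only when transcripts could enter through a table made with the transcriptome. The choices by both tables, by Stampy-G and by GSNAP are not neutral either. They leave out transcripts with few counts on the genome, so a lower NR median there was in part fixed by the filter.

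**Figure D2:**
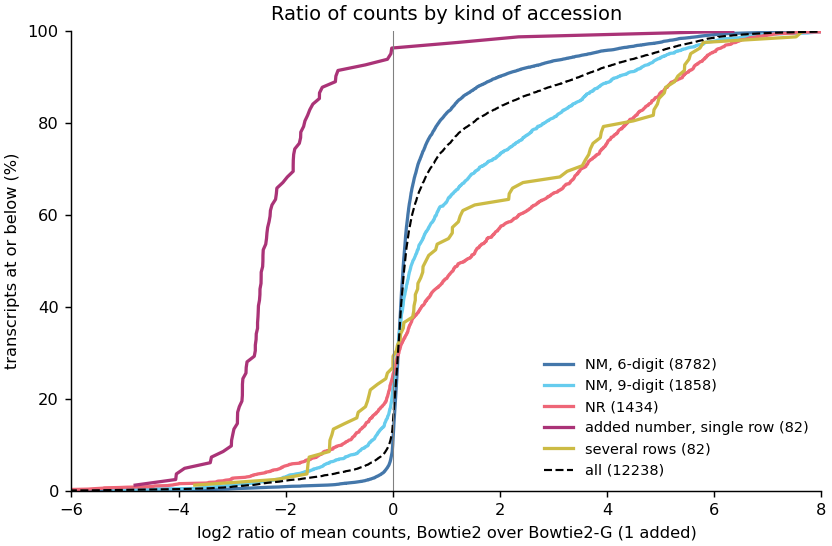
Share of transcripts (y axis, percent) at or below each log2 ratio of mean counts, Bowtie2 over Bowtie2-G with 1 added (x axis), for the groups of accessions and for all 12238 transcripts (dashed). The curve of the 82 single numbered accessions lies to the left with its median at -2.42, the NM curves rise steeply near 0, and the NR curve rises slowly to the right with its median at 1.34. The x axis ends at -6 and 8.

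The single numbered accessions moved the other way. Of the 266 such transcripts in the tables, 82 entered the comparison, 68 NM and 14 NR. The test called 76 of them lower with Bowtie2 (92.7%, against 8.02% of all transcripts), 75 of these by 2-fold or more, and 3 higher. Their median log2 ratio was -2.42 (quartiles -2.74 and -1.77), which means counts 5.37-fold lower with the transcriptome reference. The median was -2.46 for the NM and -1.84 for the NR transcripts among them, and -2.43 for the 58 with a mean of 10 or more in both tables.

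The difference was mostly several-fold in the transcripts with many counts. Of the single numbered accessions, 46 had a mean of 100 or more in either table, and 2 of them had more counts with Bowtie2. The only one that passed through Bowtie2 alone had a mean of 718 there and 7.83 with Bowtie2-G. In the other 45, which had 100 or more with Bowtie2-G, the count with Bowtie2-G was a median of 5.65 times that with Bowtie2 (quartiles 4.79 and 6.96). The ratio was between 4 and 8 in 33 of the 45, under 4 in 9 and over 8 in 3. With Stampy, which also was run on both references, the median was 43.4. TopHat2 had counts close to those of Bowtie2-G in these 45 transcripts, with a median ratio of 1.13 (quartiles 1.03 and 1.21).

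Rows of accessions that stand in several rows gave 82 transcripts. Of these, 54 (65.9%) were called higher and 18 (22.0%) lower with Bowtie2, against 69.9% and 8.02% of all transcripts, and the median log2 ratio was 0.64. Among the 48 with a mean of 10 or more in both tables it was 0.17, as over all such transcripts. These rows share an accession with another row, so a read that fits both can be counted in either or in neither.

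Summed over transcripts, the groups stood in another order. Over all transcripts, Bowtie2 gave 6.82 ± 1.08 more counts per 100 read pairs than Bowtie2-G (SD of the difference, n = 12 animals). NM transcripts of 6 digits gave 32.5 to 43.8 counts per 100 read pairs with Bowtie2 (median 35.6) and 24.88 to 36.22 with Bowtie2-G (median 28.6). The ranges over animals overlapped, but each animal had more with Bowtie2, by 7.40 ± 0.994 (SD of the difference, n = 12).

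The NR group gave few counts with either reference. It leaves out the NR transcripts among the single numbered accessions and the accessions with several rows. The group gave 0.672 to 0.983 counts per 100 read pairs with Bowtie2 (median 0.775) and 0.541 to 0.780 with Bowtie2-G (median 0.659). All 12 animals had more with Bowtie2, by 0.136 ± 0.0321 (SD of the difference). As a ratio this was 1.21, as it was over all transcripts. The NR group took 2.03% of all counts in both tables (SD 0.256 with Bowtie2 and 0.240 with Bowtie2-G). The median over NR transcripts and the sum of their counts thus gave different sizes of the same direction. NM transcripts of 9 digits gave 1.06 to 1.51 counts per 100 read pairs with Bowtie2 (median 1.24) and 0.783 to 1.15 with Bowtie2-G (median 0.940), higher in all 12 animals by 0.294 ± 0.0342.

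The single numbered accessions gave 0.214 to 0.397 counts per 100 read pairs with Bowtie2 (median 0.320) and 0.844 to 1.77 with Bowtie2-G (median 1.39). The ranges of the animals did not overlap. The difference of Bowtie2 minus Bowtie2-G was -1.02 ± 0.218 (SD, n = 12), and the counts were 3.94-fold to 4.69-fold lower with Bowtie2 in the 12 animals. Their share of all counts was 4.14% ± 0.881 with Bowtie2-G and 0.797% ± 0.177 with Bowtie2. A single row held 62.3% of the counts of the group with Bowtie2-G. Without it, a choice made after its value was seen, the difference was -0.379, and the ratio of the summed counts of Bowtie2-G to Bowtie2 was 4.05, against 4.31 with it.

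**Figure D3:**
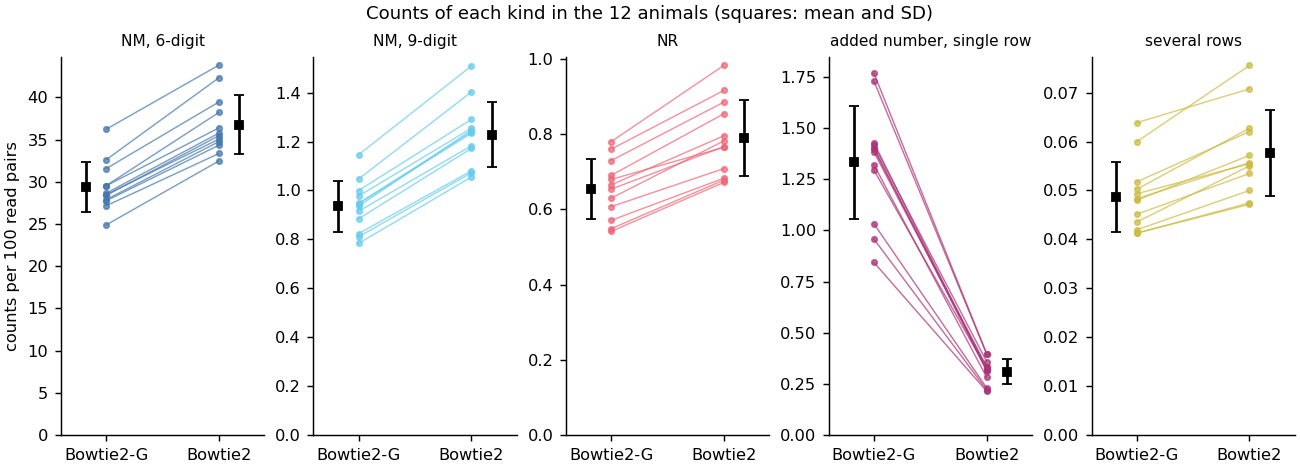
Counts per 100 read pairs (y axes, each from 0 and with its own scale) of the groups of accessions with Bowtie2-G and Bowtie2. Thin lines join the 2 values of an animal, and squares with bars give the mean and SD of the 12 animals. Every line rises from Bowtie2-G to Bowtie2, except in the panel of the single numbered accessions, where the mean drops from 1.33 to 0.310 and all 12 lines fall.

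Gains were spread over more transcripts than losses, though a small part of the transcripts held much of both. Summed over transcripts, 10434 had a higher mean count with Bowtie2, and 91 of them gave 50% of the summed gain and 2385 gave 90% of it. The 1770 with a lower mean lost 720839 counts per animal, and 3 transcripts gave 50% of this loss and 52 gave 90%. NM transcripts of 6 digits had 91.8% of the gain, NM transcripts of 9 digits 3.96% and NR transcripts 4.01%. Of the loss, single numbered accessions had 49.1%, NM transcripts of 6 digits 36.8% and NR transcripts 10.7%.

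The share of large differences varied with the level of counts, in part through the filter. Of the 5775 transcripts whose mean over both tables was under 100, 38.6% were 2-fold or more higher with Bowtie2, and the median log2 ratio was 0.42. The share was 16.4% from 100 to under 1000 (4529 transcripts, median 0.20), 6.80% from 1000 to under 10000 (1780 transcripts, median 0.16) and 9.74% from 10000 on (154 transcripts, median 0.21). Transcripts with few counts could pass through 1 table only, and with a mean of 10 or more in both tables the shares were 15.1% (3545 transcripts), 13.5% (4369), 6.80% and 9.74%. The median log2 ratio of those under 100 was then 0.16. For NR transcripts the median was 1.78 under 100 and 0.48 from 100 to under 1000, and 0.16 and 0.25 with a mean of 10 or more in both tables. The 35 NR transcripts from 1000 to under 10000 had a median of -0.02, and 9 of them (25.7%) were 2-fold or more lower with Bowtie2.

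Named transcripts were those with the largest log2 fold change among the called transcripts that had a mean of 100 or more and the same direction in 12 of 12 animals. NM_006013 had 653 to 1449 counts per animal with Bowtie2 (median 1052.5), with the highest in animal 2 and the lowest in animal 4. With Bowtie2-G it had 0 counts in all 12 animals. Against a floor of 3 counts over the 12 animals, it was at least 4061-fold higher with Bowtie2 (edgeR quasi-likelihood test, adjusted p = 2.68e-05). The other methods run on the genome differed on it: TopHat2 had 1290 to 3257 counts (median 2155), GSNAP 14 to 41 (median 24.5) and Stampy-G 0 to 2 (median 0.5). With Stampy on the transcriptome it had 664 to 1468 (median 1072).

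NR_034107, a non-coding transcript by its accession, had 470 to 2331 counts with Bowtie2 (median 1240) and 0 to 3 with Bowtie2-G, 5 in all. The animals did not overlap between the tables. The ratio of the summed counts was 2963 (exact 95% interval 1269 to 9126, counting error only). The log2 fold change was 11.15 (edgeR quasi-likelihood test, adjusted p = 2.2e-18), and 10.94 to 12.02 when each animal was left out in turn. Animal 12 had the highest and animal 3 the lowest count. TopHat2 gave this transcript 142 to 691 counts (median 404.5), Stampy 1028 to 4094 (median 2277.5), Stampy-G 0 to 2 and GSNAP 0 in all animals.

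In the other direction, NR_046096 had 327 to 648 counts with Bowtie2-G (median 509.5) and 0 or 1 with Bowtie2, 3 in all. The ratio of the sums, Bowtie2-G to Bowtie2, was 2015 (exact 95% interval 689 to 9774). The log2 fold change was -10.39, and -10.71 to -10.28 when each animal was left out in turn. Stampy-G had 95 to 177 counts (median 143.5), GSNAP 29 to 72 (median 46.5), Stampy 4 to 11 and TopHat2 at most 1. NM_020144 had 239 to 660 counts with Bowtie2-G (median 421) and 0 to 5 with Bowtie2, 15 in all. The ratio of its sums was 331 (exact 95% interval 200.5 to 592). The log2 fold change was -8.23, and -8.67 to -8.08 when each animal was left out in turn. Stampy-G had 221 to 640 counts of it (median 415.5), and Stampy, TopHat2 and GSNAP had at most 7. For both transcripts the animals did not overlap between Bowtie2 and Bowtie2-G. PCR reads are not independent molecules, so these intervals cover counting error only.

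**Figure D4:**
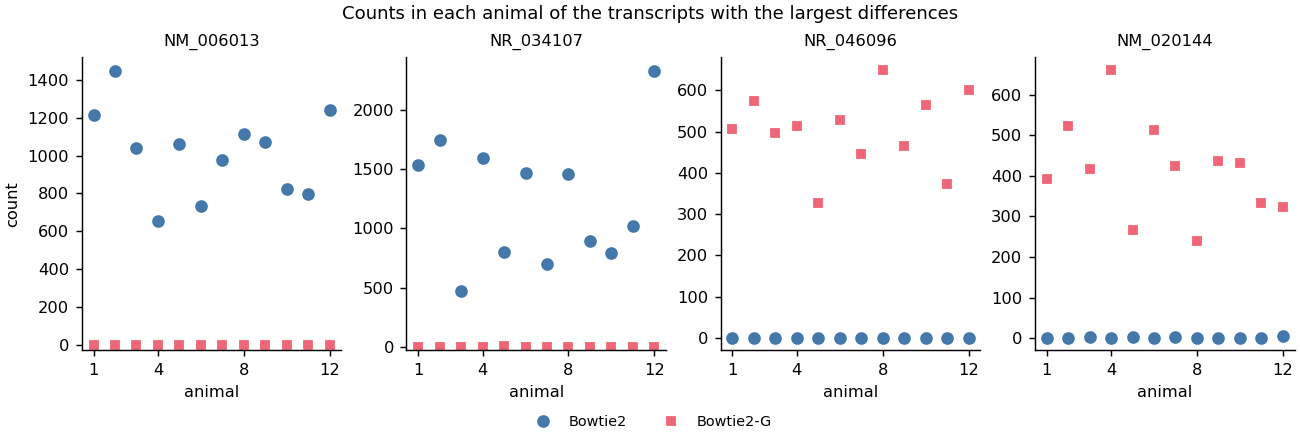
Counts (y axes, each with its own scale) of NM_006013, NR_034107, NR_046096 and NM_020144 in animals 1 to 12 (x axes) with Bowtie2 (circles) and Bowtie2-G (squares). With the reference that gave the lower values, no animal had more than 5 counts, and with the other reference every animal had 239 or more.

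Among the 10 with the largest change in favour of Bowtie2, 8 were NM and 2 were NR transcripts, with log2 fold changes of 10.00 to 12.99. Of all transcripts compared, 10754 were NM and 1484 NR. All 10 had at least 50% of the Bowtie2 count with Stampy, 5 with TopHat2, 1 with Stampy-G and 0 with GSNAP. Over all transcripts compared, these shares were 98.9%, 88.7%, 82.4% and 60.6%, so the count with Stampy was near its share. Among the 10 with the largest change in favour of Bowtie2-G, 4 were NM and 6 were NR transcripts, with log2 fold changes of -10.39 to -5.62. Of these, 9 had at least 50% of the Bowtie2-G count with Stampy-G, 4 with GSNAP, 0 with TopHat2 and 0 with Stampy. Over all transcripts with a count with Bowtie2-G, these shares were 98.1%, 81.2%, 94.7% and 97.0%, so the count with Stampy-G was near its share.

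The other 4 tables of the same reads show which methods counted the transcripts that differed by 2-fold or more. Stampy on the transcriptome does not enter the comparison, and TopHat2 and GSNAP place reads across introns on the genome. TopHat2 does so after a first step in which it maps to the transcriptome with Bowtie2, as the study describes it, so its counts are not independent of that reference. For the 3109 transcripts higher with Bowtie2, the median count as a percentage of Bowtie2 was 126% with Stampy, 70.8% with TopHat2, 24.8% with Stampy-G, 12.3% with Bowtie2-G and 4.91% with GSNAP. These transcripts were chosen for a low count with Bowtie2-G, so its percentage was fixed to be low. TopHat2 reached 50% of the Bowtie2 count in 2049 of them (65.9%), against 88.7% of all transcripts compared. Stampy did so in 3047 (98.0%, against 98.9% of all), Stampy-G in 981 (31.6%, against 82.4%) and GSNAP in 93 (2.99%, against 60.6%). The share of Stampy was thus near that over all transcripts.

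The methods run on the genome differed among themselves on these transcripts. In 1375 (44.2%), TopHat2, with its step on the transcriptome, was the only one of them at 50% or more of the Bowtie2 count, and in 736 (23.7%) none was. TopHat2 reached 50% in 74.3% of the NM transcripts of 6 digits, 54.9% of those of 9 digits and 59.2% of the NR transcripts. The share over all compared transcripts of each group is not given here, so these values do not separate the 2-fold transcripts from their group. The 2049 transcripts in which it did so held 92.2% of the gain in counts of the 3109, with a median of the mean counts of 105.5 with Bowtie2, against 37.4 in the other 1060. The parts of exon boundaries and of the first step of TopHat2 in these differences were not tested.

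Transcripts lower with Bowtie2 had another profile. For the 489 of them, the median count as a percentage of Bowtie2-G was 129% with Stampy-G, 70.8% with GSNAP, 66.4% with TopHat2, 31.3% with Stampy and 20.9% with Bowtie2. Here the percentage of Bowtie2 was fixed to be low by the choice of transcripts. Stampy-G reached 50% of the Bowtie2-G count in 477 (97.5%), near its share of 98.1% over all transcripts with a count with Bowtie2-G. GSNAP did so in 338 (69.1%, against 81.2%) and TopHat2 in 266 (54.4%, against 94.7%). By group, TopHat2 did so in 89.3% of the 75 single numbered accessions and in 29.8% of the 141 NR transcripts. Here too, the share over all compared transcripts of each group is not given.

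The contrast between references was also found with Stampy. Of the 3109 transcripts higher with Bowtie2 by 2-fold or more, 2419 (77.8%) were 2-fold or more higher with Stampy than with Stampy-G, against 22.0% of all transcripts compared, and 3 were 2-fold or more lower. The share was 91.7% for NR transcripts, 75.1% for NM transcripts of 9 digits and 72.0% for those of 6 digits. The groups also differed in this before any choice by Bowtie2. Over all compared transcripts of each group, the median log2 ratio of Stampy to Stampy-G (1 added) was 1.30, 0.31 and 0.14, in the same order. The 22.0% is therefore not the background of the NR share. Of the 489 lower with Bowtie2, 378 (77.3%) were 2-fold or more lower with Stampy than with Stampy-G, against 438 of the 12174 transcripts with a count with Bowtie2-G, and 3 were 2-fold or more higher. These are mappings of the same reads of the same animals, so they are no separate samples.

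**Figure D5:**
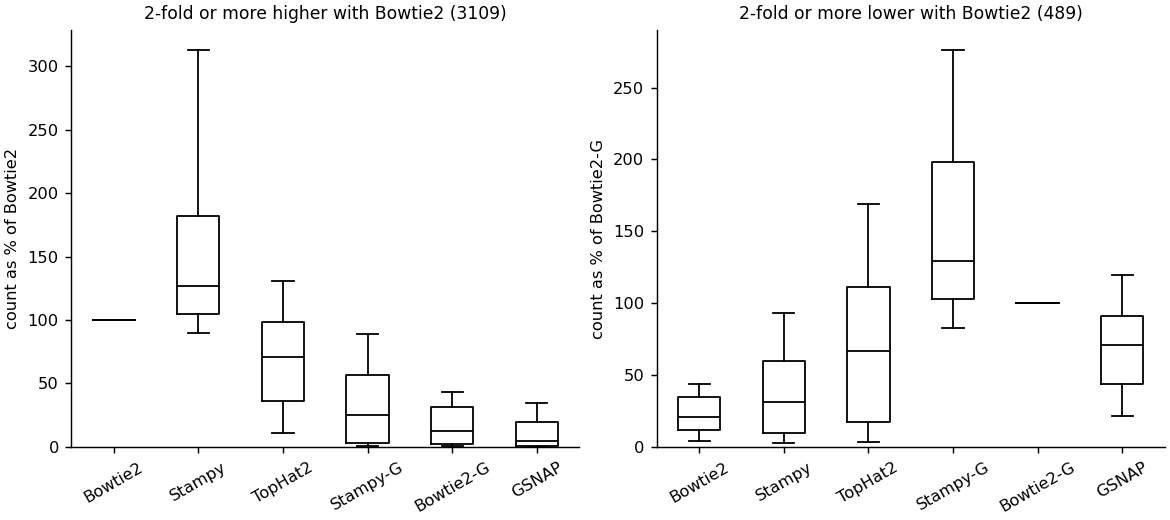
Mean count with each of the 6 methods as a percentage of Bowtie2 for the 3109 transcripts 2-fold or more higher with Bowtie2 (left) and of Bowtie2-G for the 489 that were 2-fold or more lower (right). Boxes give the quartiles and median over transcripts and whiskers the 10th and 90th percentiles. On the left the median of TopHat2 is 70.8% and that of Bowtie2-G 12.3%, and on the right the medians of Stampy-G and Bowtie2 are 129% and 20.9%. The choice of transcripts fixed Bowtie2-G on the left and Bowtie2 on the right at low values.

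The difference between references was steady over animals. In single animals, 3025 to 3205 transcripts were 2-fold or more higher and 483 to 507 were 2-fold or more lower with Bowtie2. The median log2 ratio over all transcripts was 0.27 to 0.28 in animals 1, 2 and 3 and 0.21 to 0.23 in the other 9. For NR transcripts it was 1.22 to 1.45 over the 12 animals, and for single numbered accessions -2.52 to -2.29. Without animals 1, 2 and 3, a choice made after their values were seen, 8227 transcripts were called higher and 940 lower. By the study's numbering, these animals were the ones given no bacteria at the inoculation that followed sampling. Whether handling or processing differed between them and the others was not tested.

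Among transcripts with many counts, the animals differed by more than the references did from animal to animal. Over the 5800 transcripts with a mean of 100 or more in both tables, the median SD over animals of the log2 ratio was 0.0443. The median SD of the log2 level per read pair was 0.367 with Bowtie2 and 0.375 with Bowtie2-G. The animal with the highest level was the same with both references in 5284 of the transcripts (91.1%). Among the 406 of them that were 2-fold or more higher with Bowtie2, the SD of the ratio was 0.120 and the highest animal was the same in 304 (74.9%). Among the 80 that were 2-fold or more lower, the SD was 0.0940 and the highest animal was the same in 65 (81.3%).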

How the data were processed

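Per the labels and the study's methods, the authors isolated total RNA from blood, depleted globin transcripts and sequenced TruSeq libraries as paired reads. The submitters' processing notes name Trimmomatic 0.25, Bowtie2 2.0.6, TopHat2 2.0.7, HTSeq 0.5.4 and hg19. Per the study's methods, the transcriptome was extracted from hg19 by the coordinates of an Ensembl annotation. The transcripts in the deposited tables carry RefSeq accessions, and the study does not say how the 2 relate. The deposited values are raw counts per transcript, made by the authors with htseq-count (intersection-nonempty mode, primary alignments) and not normalized. The strand setting is not given in the sources used here, so a transcript and an antisense partner cannot be told apart. Near-identical copies may share reads.

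Columns were matched to animals by number, and all 24 columns compared belong to the 12 animals. Each animal's columns come from the same reads. In all 12, the deviations from the table means correlated best with the animal's own column of the other table (lowest 0.737, highest with another animal 0.360). Counts were fitted with edgeR 4.0.16 (R 4.3.3) with the animal as a block and the read pairs after quality control as offset, which the study's methods give. DESeq2 1.42.0 was an alternative. Other values were computed with Python 3.11.15, numpy 2.4.6, scipy 1.17.1 and pandas 2.3.3. The tests were checked on simulated data, with the 2 columns of an animal drawn independently and few transcripts changed. That check does not cover columns that share reads, or a comparison in which most transcripts are called. Whether the 12 columns of a table also differ by technical spread cannot be told apart from the animals.

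The members and groups were chosen with earlier results of these data known, and the groups by accession after the tables were seen. Alternatives covered the scaling, tool, filter, block, added count, rows summed per accession and each animal left out. The rule for named transcripts took the 10 largest log2 fold changes in each direction (adjusted p under 0.05, same direction in 12 of 12 animals, mean of 100 or more in a table), of which 2 in each direction are printed, because accessions are not paired with genes. For the same reason the planned gene lists, blood cell markers, isoform, length, exon and pseudogene groups and sums per gene were not used, and no sequence is shown.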

Additional observations from a re-analysis of the deposited data

How the results depend on the processing

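Low counts and the scaling set the limits. The 8552 higher and 982 lower transcripts became 4406 and 6003 with TMM and 4342 and 5719 with the size factors of DESeq2, which moved the median log2 fold change by -0.34. Without the replicate block, 4590 were higher, and 675 lower. Without a filter, 1606 were lower, 1036 of them 2-fold or more. With a mean of 10 or more in both tables, 1263 were 2-fold higher and 244 lower. With 100 or more in either, 5637 were higher and 365 lower, 1303 and 185 by 2-fold or more. The latter filters test fewer transcripts by construction. Leaving out each animal gave 8453 to 8512 higher and 957 to 979 lower transcripts, and 3104 to 3122 and 488 to 495 by 2-fold or more. DESeq2 with read pairs as size factors gave 8341 and 940.

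Median log2 ratios moved as follows with the added count and the choice of transcripts, and none of these changed sign. Another scaling was not applied to them. In the fits with TMM, the median log2 fold change was negative over all transcripts (-0.11) and for NM transcripts of 6 digits (-0.13). With 0.1 added, NR transcripts had 1.42 and single numbered accessions -2.48. With 5 added, these had 1.07 and -2.20, and NM transcripts of 9 digits 0.34. With a mean of 10 or more in both tables, the median was 0.17 over all, 0.16 for NM transcripts of 9 digits, 0.16 for NR transcripts and 0.17 for accessions with several rows. With 100 or more in either, NM transcripts of 9 digits had 0.30, NR 1.10, single numbered accessions -2.49 and accessions with several rows 0.46. With NM rows only, the last had 0.49. Taken by the TopHat2 table, NM transcripts of 9 digits had 0.25, NR 1.01 and accessions with several rows 1.11, and by the Stampy table NM transcripts of 9 digits had 0.41, NR 0.88 and single numbered accessions -2.30. By the Stampy-G table the medians were 0.17 over all, 0.16 for NM transcripts of 9 digits, 0.0945 for NR, -2.37 for single numbered accessions and 0.17 for accessions with several rows. By the GSNAP table they were 0.16 over all, 0.17 for NM transcripts of 6 digits, 0.13 for those of 9 digits, 0.0604 for NR and 0.0021 for accessions with several rows. Taking transcripts by these 4 tables was chosen after seeing the data. So was leaving out the highest row of the single numbered accessions, which changed their difference per 100 read pairs to -0.379. The cause of these changes was not tested. Sums per gene, the highest row per gene and genes with a single row were not run, because accessions are not paired with genes.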

Other observations

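In the tables, 603 accessions stand in several rows. Of those with 2 rows, 22 had a summed mean of 20 or more in both tables. The row with fewer counts held a median of 46.7% of the sum with Bowtie2 and 46.2% with Bowtie2-G. It held 40% or more in 13 of the 22 accessions with each reference and under 10% in 8. With TopHat2 the median was 0.00435%, and the row held under 10% in 19 of the 22. With GSNAP the median was 0%, and the row held under 10% in 20 and 40% or more in 1. With Stampy and Stampy-G the medians were 39.1% and 40.1%. The sum of both rows was higher with Bowtie2 than with Bowtie2-G in 12 of the 22, with a median log2 ratio of 0.03. It was 2-fold or more higher in 4 and 2-fold or more lower in 5. No test was made of these values, which were looked at after the tables were seen, and the part of equal sequences in the 2 rows was not tested.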
